A study of Mus musculus with 8 samples.

Results

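The Notch pathway genes described here are the receptors Notch1, Notch2 and Notch3, the ligands Dll1, Dll3 and Jag1, and the Hes and Hey genes Hes1, Hes5, Hes6 and Hey1. They were chosen by name, and a probe was taken as a member when its accession mapped to one of these symbols. All 10 genes had a probe, with 14 probes among the 41174 of the array, and all 14 were well above background on all 8 arrays and were tested. Notch2 had 3 probes, Jag1 and Hes6 had 2 each, and the other genes had 1. For genes with several probes the brightest one was used, and the others are given beside it.

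RNA was measured on 1-colour Agilent arrays in the medial ganglionic eminence (MGE), the part of the embryonic ventral forebrain that gives rise to many cortical interneurons, at E13.5. The 4 WT samples were Nkx2-1flox/+ without Cre (Nkx2-1flox/+;Olig2tva-cre-) and the 4 Nkx2-1cKO samples carried Cre (Nkx2-1flox/+;Olig2tva-cre+), all on C57BL/6. The labels thus give a single floxed allele in both groups, while the methods of the study name the Nkx2-1f/f strain for the conditional knockout, and the WT group here carries the floxed allele too. Cre was made from Olig2 regulatory sequence, so that cells which never expressed Olig2 would keep Nkx2-1. The labels do not say whether the 4 samples of a group came from separate embryos or litters, and p-values measure only the spread between these samples. The dissected tissue was bulk, so fewer cells of a type and less RNA per cell cannot be told apart.

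Notch receptors are cleaved when a ligand on a neighbouring cell binds them, and the released intracellular part enters the nucleus, where it joins the DNA-binding protein RBPJ and turns on Hes and Hey repressors. In the ventricular zone of the embryonic forebrain, cells that begin to differentiate carry Delta ligands and hold their neighbours in the radial glial state. HES1 and HES5 repress proneural genes, which drive differentiation.

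No RBPJ motif was present in 9 of the 10 promoter windows found for these genes, and the exception was Hes5, a textbook target of Notch signalling. Windows of 300 bases, from 250 before to 50 after a transcript start, were taken from RefSeq (GRCm38.p6) and matched 8 of the 10 genes, with none for Hes1 and Hey1. The letters GTGGGAA, a form of the RBPJ site, were searched on both strands and occurred in 6.38% of all 32851 windows. Hes5 held 2 matches, at bases 25 to 31 and 168 to 174 of the window, in opposite orientations. The window is shown with both matches in capitals, at chr4:154960673-154960972 on the plus strand.
Hes5: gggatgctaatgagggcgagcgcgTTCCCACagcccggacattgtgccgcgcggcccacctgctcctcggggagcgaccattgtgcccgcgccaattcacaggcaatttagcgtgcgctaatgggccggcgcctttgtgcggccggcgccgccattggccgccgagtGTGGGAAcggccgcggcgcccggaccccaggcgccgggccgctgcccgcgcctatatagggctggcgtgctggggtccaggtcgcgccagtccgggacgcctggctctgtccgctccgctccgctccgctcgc

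The core of the NK2 site, CAAGTG, was searched in the same way and was present in 13.6% of all windows and in 0 of the 10 windows of these genes. These matches describe the letters in the windows, and binding was not measured on the arrays.

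In the 8 arrays, Nkx2-1 itself served as the check of which group had lost the gene, and not of the labelled alleles. Its level, given throughout as log2 signal relative to the 75th percentile of the array, was 1.87 ± 0.06 in the WT arrays and -4.46 ± 0.19 in the Nkx2-1cKO arrays (SD, n = 4 each). The Nkx2-1cKO signal was 1.24% of that in WT, while the labels name a single floxed allele. Whether the labelled alleles are complete was not tested. Where the probe lies relative to the deleted part is not given in the sources used here. The summed signal of 6 genes of MGE neurons (Lhx6, Lhx8, Sst, Npy, Gbx1 and Nkx2-1) was 48.4 to 52.1 in WT and 7.01 to 8.40 in Nkx2-1cKO, on a linear scale on which the 75th percentile of an array is 1, and all 6 passed the test as lower.

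None of the 10 Notch pathway genes passed the test in either direction. In the limma fit with Benjamini-Hochberg adjustment over 31283 probes, 0 of 10 were higher and 0 of 10 were lower in Nkx2-1cKO at an adjusted p of 0.05, where 0.422% of all tested probes were higher and 0.614% were lower. At an unadjusted p under 0.05, 1 of the 10 genes (Hes1) was counted, against 8.62% of all tested probes. The mean was higher in Nkx2-1cKO for 8 genes and lower for Hes1 and Hes5, but the sign turned with quantile normalization for Dll1, Dll3 and Jag1 and with centring on the median for Hes5. The 10 log2 fold changes ran from -0.28 to 0.26 with a median of 0.06, beside a median of -0.04 over all tested probes. The groups overlapped for all 10 genes, while for 6.46% of all tested probes they did not.

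**Figure D1:**
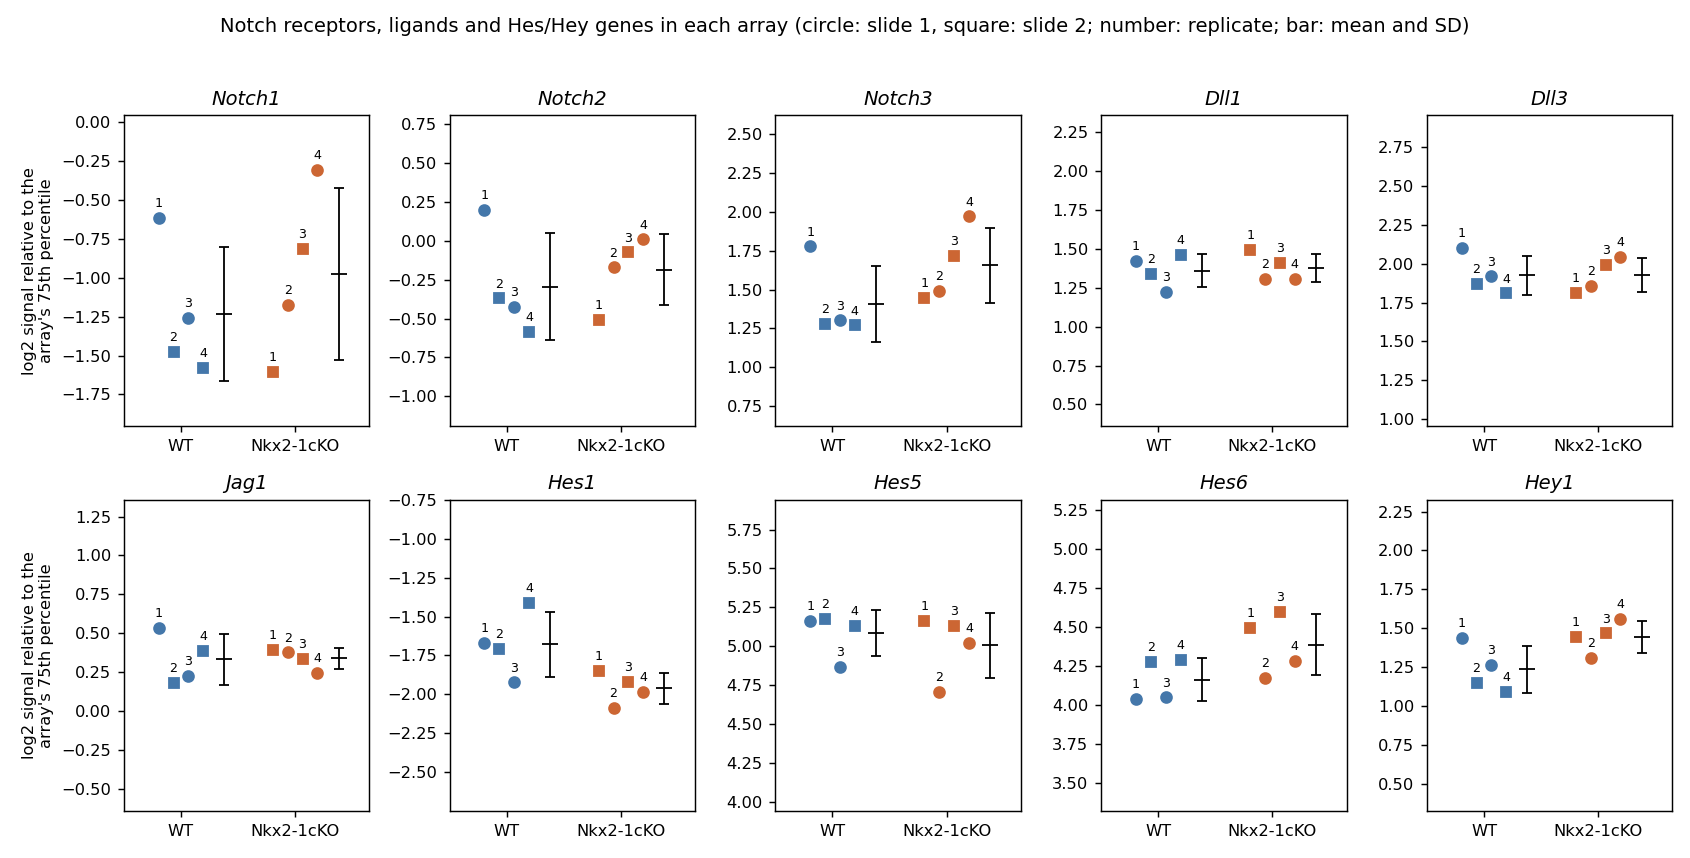
Level of each gene in each array (y axis, log2 signal relative to the array's 75th percentile; every panel spans at least 2 log2 units) for the 4 WT and 4 Nkx2-1cKO samples. Points are arrays with their replicate number, circles and squares are the 2 slides, and black bars are mean ± SD (n = 4). The 2 groups overlap in all 10 panels.

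Among the receptors, Notch1, the main receptor of neural progenitors, varied most between arrays. Its log2 level was -0.62, -1.48, -1.26 and -1.58 in WT arrays 1 to 4 and -1.60, -1.18, -0.81 and -0.31 in Nkx2-1cKO arrays 1 to 4. WT 1 lay above the other WT arrays and above 3 of the 4 Nkx2-1cKO arrays, and the lowest array of all belonged to Nkx2-1cKO. The log2 fold change was 0.26 (SE 0.29, limma adjusted p = 0.764; exact two-sided permutation p = 0.514). Its 95% interval, -0.38 to 0.90, was the widest of the 10 genes.

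Notch3, a receptor of radial glia and of vascular mural cells, was close to even in 3 WT arrays. WT arrays 1 to 4 read 1.78, 1.28, 1.30 and 1.27, and Nkx2-1cKO arrays 1 to 4 read 1.45, 1.49, 1.72 and 1.97. All Nkx2-1cKO arrays were above WT 2, 3 and 4, and WT 1 lay within the Nkx2-1cKO range. Nkx2-1cKO over WT came to a log2 fold change of 0.25 (SE 0.15, adjusted p = 0.653 in limma; exact two-sided permutation p = 0.2). The summed signal of 6 mural cell genes was 16.8 to 19.8 in WT and 17.1 to 18.0 in Nkx2-1cKO, 0 of the 6 passed the test, and their part in the Notch3 values was not tested. This linear sum was weighted toward Acta2, whose mean log2 level in WT was 3.81, beside 0.90 for Kcnj8, the next brightest.

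For Notch2, also a receptor of progenitors and glia, the brightest probe read 0.20, -0.37, -0.43 and -0.59 in the WT arrays and -0.51, -0.17, -0.08 and 0.01 in the Nkx2-1cKO arrays. WT 1 was again the highest of its group, here of all 8 arrays. On this probe the log2 fold change was 0.11 (SE 0.18, limma adjusted p = 0.841). The other probes of Notch2 had log2 fold changes of -0.30 and -0.13, so the probes disagreed in sign, and none of them passed. Notch4, the fourth receptor and mainly an endothelial one, had a log2 fold change of 0.20 (limma adjusted p = 0.629).

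Both Delta ligands were nearly level between the groups. Dll1, which activates Notch on neighbouring cells, read 1.42, 1.34, 1.22 and 1.46 in WT and 1.50, 1.31, 1.41 and 1.31 in Nkx2-1cKO, with the arrays of the groups interleaved. Dll3, a Delta protein that acts on Notch within its own cell rather than as a trans-activating ligand, spanned 1.81 to 2.10 in WT and 1.81 to 2.04 in Nkx2-1cKO. Their log2 fold changes were 0.02 (SE 0.09) and 0.00 (SE 0.09), with limma adjusted p-values of 0.946 and 0.996. The 95% intervals, -0.17 to 0.21 for Dll1 and -0.20 to 0.21 for Dll3, lay inside a 1.25-fold change in either direction.

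Jag1, a Serrate-type ligand found in vessels and in some neural progenitors, gave the same picture on its brighter probe. It spanned 0.18 to 0.54 in WT and 0.25 to 0.39 in Nkx2-1cKO, with a log2 fold change of 0.01 (SE 0.10, limma adjusted p = 0.986) and an interval of -0.21 to 0.23. The dimmer Jag1 probe read -3.63, -5.65, -5.39 and -5.34 in WT and -5.87, -5.56, -5.79 and -5.06 in Nkx2-1cKO. WT 1 was far above the other 7 arrays on that probe, which had a log2 fold change of -0.57 (limma adjusted p = 0.677). It was also the highest array on the dimmer Notch2 probes, at -4.71 and -3.24. The median signal of all non-control spots was 289 in WT 1, with a 75th percentile of 2574. The other arrays had medians of 164 to 235 and 75th percentiles of 2028 to 2519. The part of this array-wide difference in the WT 1 values was not tested. The sum over 7 endothelial genes was 7.52 to 10.6 in WT and 8.20 to 10.3 in Nkx2-1cKO, and 0 of the 7 passed. It was weighted toward Cldn5, whose mean log2 level in WT was 2.61, beside -0.13 for Kdr, the next brightest.

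**Figure D2:**
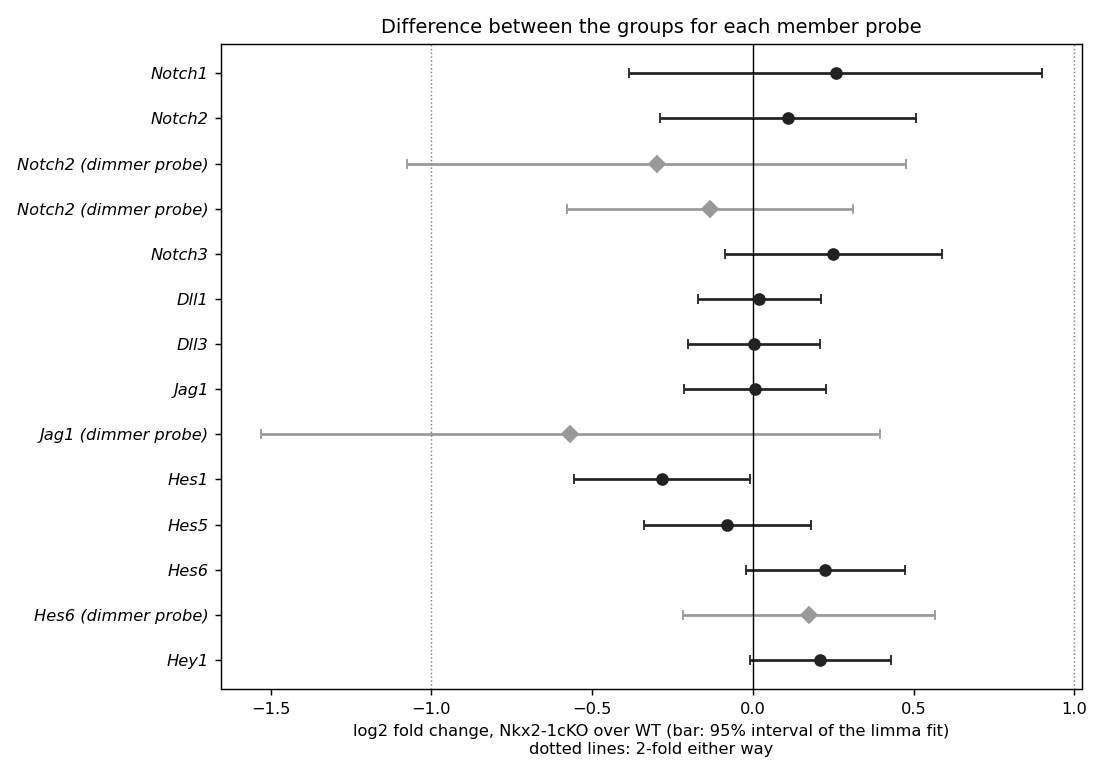
Log2 fold change of Nkx2-1cKO over WT (x axis) for each of the 14 probes, with the 95% interval of the limma fit; black circles are the probe used for each gene and grey diamonds the dimmer probes. Intervals are shortest for Dll1, Dll3 and Jag1, and for Notch2 and Jag1 the dimmer probes lie on the other side of 0.

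Of the target genes, Hes1, a repressor that oscillates in neural progenitors, had the smallest p of the 10. Its log2 level was -1.67, -1.71, -1.92 and -1.41 in WT and -1.85, -2.09, -1.92 and -1.99 in Nkx2-1cKO. WT 1, 2 and 4 were above every Nkx2-1cKO array, WT 3 lay within the Nkx2-1cKO range, and WT 4 was the highest. The log2 fold change was -0.28 (SE 0.12, interval -0.56 to -0.01), with p = 0.0445 before and 0.570 after limma's Benjamini-Hochberg adjustment, and an exact two-sided permutation p of 0.0857.

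The array with the most Hes1 was also the one with the most signal of mesenchymal genes. The sum over Col1a1, Col1a2, Col3a1, Lum and Dcn was 6.78 in WT 4, 0.74 to 1.33 in the other WT arrays and 0.70 to 1.29 in Nkx2-1cKO, and 0 of the 5 passed the test. Without WT 4 the log2 fold change of Hes1 was -0.19 (limma adjusted p = 0.626), and the part of mesenchymal RNA in the Hes1 values was not tested. The genes whose pattern over the 8 arrays was most like that of Hes1, among 14419 genes compared, were Col23a1, a transmembrane collagen, Myof, which codes for the membrane-repair protein myoferlin, and Emilin1, an extracellular matrix glycoprotein. Their likeness to Hes1, as Pearson's r, was 0.96, 0.95 and 0.95, and being the highest of so many it is given as a description with no test.

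Hes5, a repressor that marks Notch-active radial glia and the gene whose window held both RBPJ matches, showed no separation of the groups. WT arrays gave 5.16, 5.18, 4.87 and 5.13, and Nkx2-1cKO arrays gave 5.16, 4.71, 5.13 and 5.02. A single array in each group, WT 3 and Nkx2-1cKO 2, lay below the rest, and both were on the same slide. This gave a log2 fold change of -0.08 (SE 0.12, interval -0.34 to 0.18, limma adjusted p = 0.822).

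Hes6, which unlike Hes1 and Hes5 promotes neuronal differentiation and opposes HES1, read 4.04, 4.27, 4.05 and 4.29 in WT and 4.49, 4.17, 4.60 and 4.28 in Nkx2-1cKO. Nkx2-1cKO 1 and 3 were above all WT arrays, and the other two lay within the WT range. The log2 fold change was 0.23 (SE 0.11, interval -0.02 to 0.47, limma adjusted p = 0.613; exact two-sided permutation p = 0.143). The dimmer Hes6 probe had a log2 fold change of 0.17 (limma adjusted p = 0.742).

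Hey1, a repressor of the Hey group that is expressed in ventral forebrain progenitors and in endothelium, read 1.44, 1.15, 1.26 and 1.09 in WT and 1.44, 1.31, 1.47 and 1.56 in Nkx2-1cKO. All Nkx2-1cKO arrays were above WT 2, 3 and 4, as for Notch3, and WT 1 lay within their range. The log2 fold change was 0.21 (SE 0.10, interval -0.01 to 0.43, limma adjusted p = 0.595; exact two-sided permutation p = 0.0571).

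On the probe used for each gene, the 10 intervals all lay inside a 2-fold change in either direction, and 8 of them inside a 1.5-fold change. Those of Notch1 and Notch3 reached beyond 1.5-fold, to upper bounds of 1.87-fold and 1.50-fold. Dimmer probes of Jag1 (log2 interval -1.53 to 0.39) and Notch2 (-1.07 to 0.48) reached beyond a 2-fold decrease.

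Several of the genes were high in the same arrays in both genotypes. WT 1 was the highest WT array for Notch1, Notch2, Notch3, Dll3, Jag1 and Hey1, and Nkx2-1cKO 4 was the highest Nkx2-1cKO array for Notch1, Notch2, Notch3, Dll3 and Hey1. WT 1 and Nkx2-1cKO 4 were on the same slide, and each slide carried 2 arrays of each group. For Notch1 the arrays of slide 2 were lower than those of slide 1 by a log2 difference of -0.59 within WT and -0.47 within Nkx2-1cKO.

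**Figure D3:**
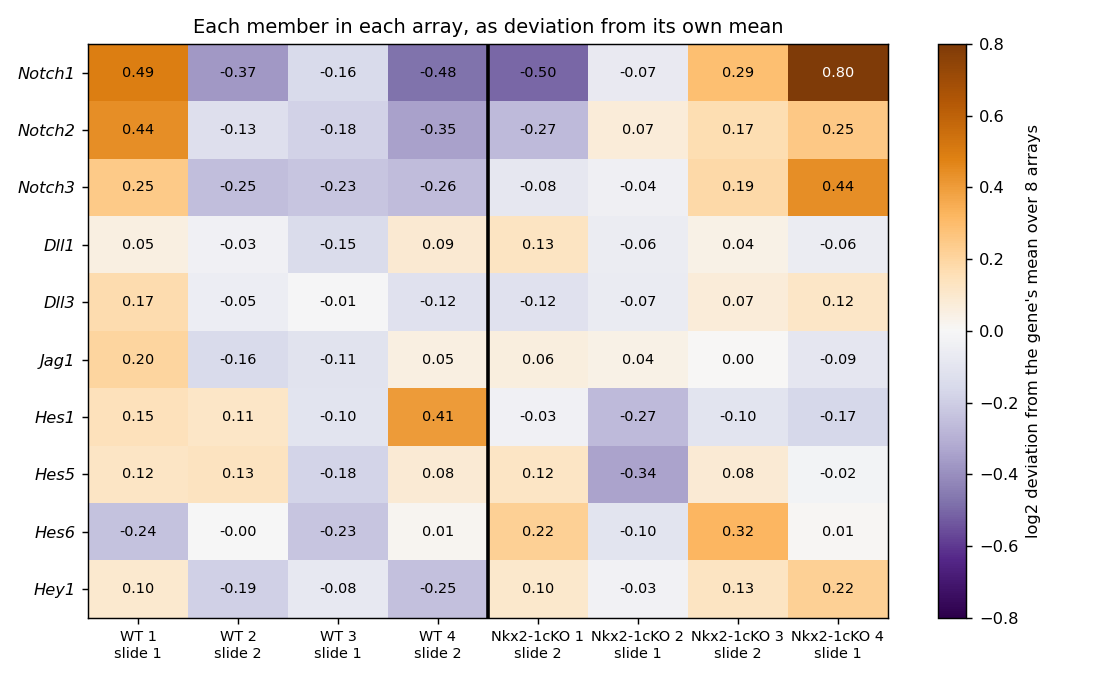
Deviation of each gene in each array from its own mean over the 8 arrays (colour and number, log2), with WT to the left and Nkx2-1cKO to the right of the black line and the slide under each array. WT 1 and Nkx2-1cKO 4 are high for Notch1, Notch2, Notch3, Dll3 and Hey1, and WT 4 is high for Hes1.

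Within the slides, the differences of Notch1 were 0.20 on slide 1 and 0.32 on slide 2, those of Notch3 0.19 and 0.31, those of Hes6 0.19 and 0.27, those of Hey1 0.08 and 0.33, and those of Hes1 -0.24 and -0.33. Notch2 and Hes5 also had the same sign on both slides, which made 7 of the 10 genes, and the sign turned between the slides for Dll1, Dll3 and Jag1. With the slide as a block in the limma fit, none passed, and the lowest adjusted p among the 10 was 0.110, for Hes6. Leaving out WT 1, the groups no longer overlapped for Notch3 (WT 1.27 to 1.30, log2 fold change 0.37, limma adjusted p = 0.447) and Hey1 (WT 1.09 to 1.26, log2 fold change 0.28, limma adjusted p = 0.397), where 8.91% of all tested probes did not overlap. Without WT 1, 0 of the 10 genes passed, and their median log2 fold change was 0.13 beside -0.0039 over all tested probes. WT 1 was the highest WT array for 6 of the 10 genes, Notch3 and Hey1 among them. Leaving it out therefore raised their log2 fold changes by construction and is no independent check. Leaving out another array in turn, chosen as a check after seeing the data, ended the overlap for Hes1 without WT 3, where 9.91% of all tested probes did not overlap, and for Hey1 without Nkx2-1cKO 2, where 13.1% did not, each time 1 of the 10 genes.

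The proneural and radial glial genes set beside the pathway as cell context did not pass the test either. Of 8 proneural and progenitor genes 0 passed, and 4 log2 fold changes were positive and 4 negative, with a median of -0.02. The groups did not overlap for 2 of the 8, beside 6.46% of all tested probes. Gadd45g, which is switched on in committed progenitors, had a log2 fold change of 0.35 (SE 0.09, limma adjusted p = 0.168) with no overlap between the groups. Of 7 radial glial genes 0 passed, and 3 log2 fold changes were positive and 4 negative, with a median of -0.04. Sox2, which keeps progenitors undifferentiated, was the lowest of the 7, at -0.31 (SE 0.11, limma adjusted p = 0.457). Gadd45g and Sox2 were named after their values were seen. The summed signal of the radial glial list was 112 in WT 1 and 89.6 to 90.9 in the other WT arrays, beside 86.3 to 100.3 in Nkx2-1cKO, so the array that was high for the Notch receptors was also high for this list, and its part in their values was not tested.

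Beyond the 10 genes, the pathway lists held 53 genes, of which 44 were tested. In Nkx2-1cKO 2 of the 44, Dlk1 and Tle4, were higher and 1, Tle6, was lower, beside 1.04% of all tested probes in either direction, with a median log2 fold change of -0.01. No gene passed among the receptors, the genes of ligand endocytosis, the sugar transferases, the proteases that cleave the receptor, the inhibitors, the nuclear complex around RBPJ or the Hes and Hey family.

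**Figure D4:**
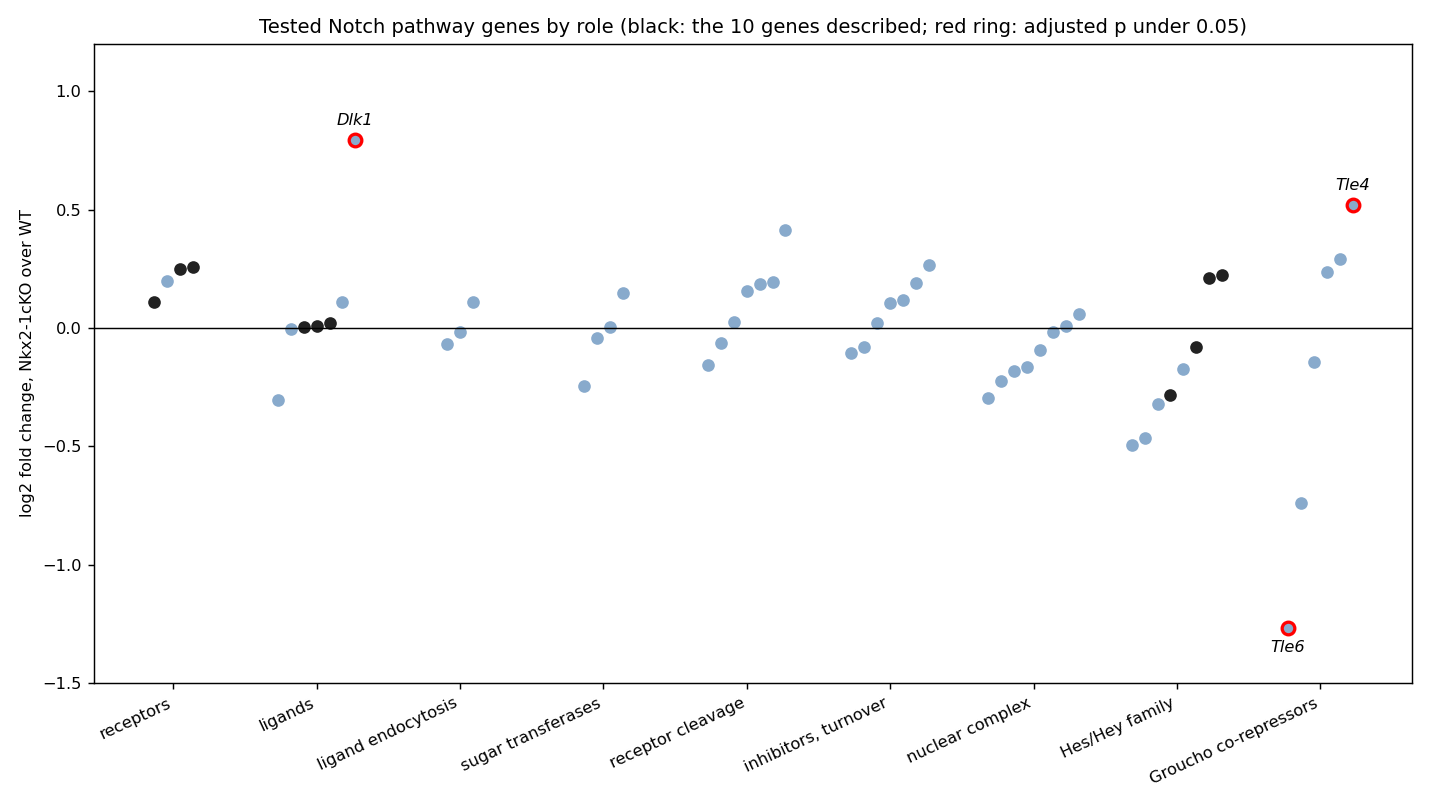
Log2 fold change of Nkx2-1cKO over WT (y axis) for the 54 tested genes of the pathway, grouped by role (x axis). Black points are the 10 genes described, and red rings mark the 3 genes at an adjusted p under 0.05 in the limma fit: Dlk1, Tle4 and Tle6.

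Dlk1, an imprinted Delta-like protein that lacks the receptor-activating domain and is known as an inhibitor of Notch in other tissues, rose. It read 2.15, 2.37, 1.99 and 2.57 in WT and spanned 2.82 to 3.29 in Nkx2-1cKO, so that the groups were apart. Its log2 fold change was 0.80 (SE 0.14, limma adjusted p = 0.0301), and it passed under 9 of 18 alternative settings. The call was lost on leaving out WT 1, 2 or 3 or Nkx2-1cKO 1, 3 or 4, with log2 fold changes of 0.70 to 0.83.

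HES and HEY proteins recruit some members of the Groucho family to silence their targets. Of the 6 tested genes of this family, which included Tle5 and Tle6, 1 was higher, 1 was lower and 4 did not pass. Tle4 rose, from 4.18, 3.98, 3.93 and 3.95 in WT to 4.69, 4.49, 4.54 and 4.40 in Nkx2-1cKO (log2 fold change 0.52, SE 0.09, limma adjusted p = 0.0225), and passed under 9 of 18 settings. Its call was lost on leaving out WT 2, 3 or 4 or Nkx2-1cKO 1 or 3, with log2 fold changes of 0.47 to 0.52. Tle6, a shorter relative best known from the maternal protein complex of the oocyte, fell. Its WT arrays read -1.83, -1.49, -2.02 and -1.68 and its Nkx2-1cKO arrays -2.93, -3.07, -2.94 and -3.16. The groups were apart for both Tle4 and Tle6, and the log2 fold change of Tle6 was -1.27 (SE 0.13, limma adjusted p = 0.00157), past the threshold under 16 of 18 settings. Of the 2 RefSeq windows of Tle6, 1 held an RBPJ match, beside 6.38% of all windows, and those of Dlk1 and Tle4 held 0.

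Tle2, another Groucho gene, was named after its values were seen, and its call differed between settings. It read 1.18, 2.28, 1.93 and 2.31 in WT and 1.14, 1.31, 1.38 and 0.91 in Nkx2-1cKO, with WT 1 inside the Nkx2-1cKO range. Its log2 fold change was -0.74 (limma adjusted p = 0.331) with all arrays and -0.99 (limma adjusted p = 0.0154) without WT 1. With all 8 arrays it was also called under normexp background correction (-0.79, limma adjusted p = 0.0178) and with array weights (-0.99, limma adjusted p = 0.0154).

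**Figure D5:**
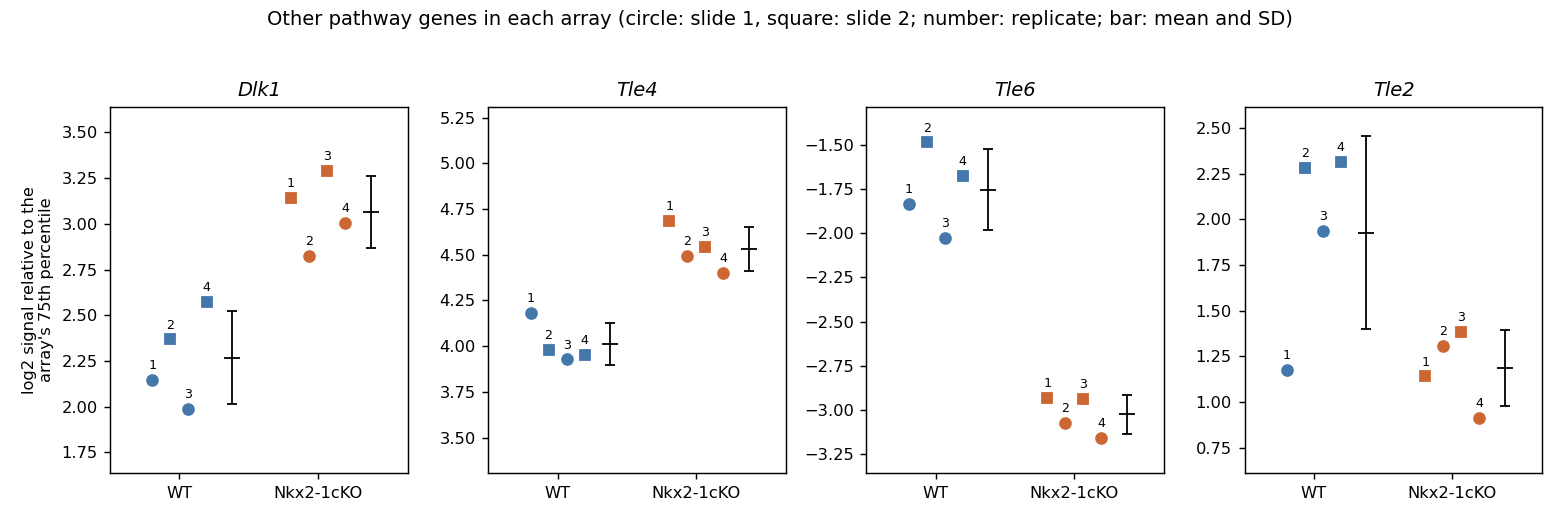
Level of Dlk1, Tle4, Tle6 and Tle2 in each array (y axis, log2 signal relative to the array's 75th percentile), drawn as for the 10 genes, with mean ± SD (n = 4). The groups are apart for Dlk1, Tle4 and Tle6, while WT 1 lies among the Nkx2-1cKO arrays for Tle2.

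In the lists where nothing passed, the largest log2 fold changes were 0.11 for Mib2, an E3 ligase for ligand endocytosis, -0.25 for Mfng, a Fringe sugar transferase, 0.41 for Aph1a, a subunit of gamma-secretase, and 0.27 for Fbxw7, which marks the cleaved receptor for degradation. In the nuclear complex Maml3, a co-activator, had -0.30, and in the Hes and Hey family Hey2 had -0.50, both on dim probes whose sign turned with another background correction. The limma adjusted p-values of these 6 genes were between 0.510 and 0.783. Of the 8 tested genes of the Hes and Hey family, 0 passed.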

How the data were processed

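Agilent whole mouse genome arrays were hybridised with MGE RNA from 4 WT and 4 Nkx2-1cKO samples, 1 per array. The authors deposited Feature Extraction output (version 10.1 per the labels, 10.7.3.1 per the file headers), with the intensity of each spot after background subtraction and no scaling between arrays. Each array's 75th percentile was taken over all non-control spots, outliers included. After removal of control and outlier spots, log2 intensities were averaged over the spots of a probe and centred on that percentile. No spot was saturated, and 71.1% to 79.5% of probes were well above background on an array. The number of arrays limits the precision.

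Accessions of 24844 of 41174 probes matched 17178 symbols in RefSeq (GRCm38.p6). Probes well above background on at least 4 arrays (31283) were fitted with limma 3.58.1 in R 4.3.3 (lmFit, then eBayes with trend), p-values were adjusted by Benjamini-Hochberg, and calls were made at 0.05. The brightest tested probe stood for a gene. Intervals are 95% intervals of that fit. The fit was tested on simulated data. Exact permutation tests used the 70 assignments of the arrays, and 0.0286 is the smallest p they can give.

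Named are the 10 genes, pathway, proneural and radial glial genes past the threshold or, beyond the 10, with the largest change in a pathway list where none passed, Nkx2-1, and the 3 genes most like the member with the smallest p. Genes outside this rule (Gadd45g, Sox2 and Tle2) were named after their values were seen. The members and lists were chosen with earlier results of these data known. Alternatives covered scaling, background, filter, slide, pairing, variance model, array weights, choice of probe and leaving out arrays.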

Additional observations from a re-analysis of the deposited data

Results flagged for a closer look

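Of 36 groups of 4 arrays examined, for the 14 probes of the Notch pathway genes and the probes of Dlk1, Tle4, Tle6 and Nkx2-1, 3 held an array far from the other three. A threshold set at the 95% level marks about 1 in 20 such groups by chance, which is 1.8 of 36. In WT the log2 level of Notch3 was 1.78 in replicate 1 and 1.27 to 1.30 in the others. The dimmer Jag1 probe read -3.63 in the same array and -5.65 to -5.34 in the other WT arrays. Hes5 read 4.87 in WT replicate 3 and 5.13 to 5.18 in the other WT arrays.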

How the results depend on the processing

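None of the 10 Notch pathway genes passed in any of 18 alternative settings. Normexp background correction shifted the median over all tested probes from -0.04 to 0.20 on the log2 scale, and centring on the median moved it to 0.09. Signs turned for some genes that had not passed, with these log2 fold changes: under quantile normalization -0.014 for Dll1, -0.039 for Dll3 and -0.017 for Jag1; under normexp -0.033 for Dll1, -0.12 for Dll3, -0.047 for Jag1, 0.53 for Maml3 and 0.046 for Hey2; under median centring 0.049 for Hes5; and with the mean of a gene's probes -0.11 for Notch2 and -0.28 for Jag1. Leaving out 1 array at a time gave -0.026 to 0.053 for Dll1, -0.037 to 0.060 for Dll3, -0.044 to 0.075 for Jag1 and -0.15 to 0.021 for Hes5. It moved the log2 fold change further for Notch1 (0.035 without Nkx2-1cKO 4 to 0.47 without Nkx2-1cKO 1), Notch2 (0.012 without WT 4 to 0.27 without WT 1) and Notch3 (0.15 without Nkx2-1cKO 4 to 0.37 without WT 1), and less for Hes1 (-0.36 to -0.19), Hes6 (0.15 to 0.30) and Hey1 (0.16 to 0.28). Of the other pathway genes, 0 were higher under median centring and without a variance trend, 1 under normexp, and 0 to 2 with an array left out; 2 were lower with array weights and 1 to 2 with an array left out. Over all probes, 115 were lower under median centring, 63 higher and 90 lower under normexp, 209 higher with the slide as a block, 87 higher without a variance trend, and 291 lower with array weights. With an array left out, 65 to 118 were higher and 130 to 174 lower.

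Dlk1 and Tle4 lost their calls under median centring, without a variance trend and on leaving out the arrays named above, Tle4 also under normexp, and Tle6 under normexp at a log2 fold change of -0.70. Tle2 gained a call under normexp, with array weights and without WT 1. The deviations of same-numbered arrays correlated at -0.48 to -0.19. Same-numbered arrays lay on different slides, so these correlations mix pairing with slide. They cannot decide whether the shared replicate numbers pair the samples. With the replicate block, 8 probes were higher and 64 lower, and 0 other pathway genes were higher and 0 lower. The cause of these changes was not tested. All 14 probes of the 10 genes were well above background on all 8 arrays.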
